A study of Mus musculus with 43 samples.

Results

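Dynlt1 encodes a Tctex-type light chain of cytoplasmic dynein 1, the motor that carries cargo along microtubules toward their minus ends. The light chain binds the dynein intermediate chain as a dimer. It has known roles in neurite growth and in the division of cortical progenitors. In the mouse it is encoded by several copies on chromosome 17, of which Dynlt1a, Dynlt1b, Dynlt1c and Dynlt1f were measured here. These 4 copies, among 56980 genes in the count table, were selected on their lower levels in Cux2 knockout (KO) than in wild-type (WT) males at E19. Values from that contrast are given as a description, and nothing is read from its tests.

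RNA was sequenced from GFP-positive cells of the somatosensory cortex, electroporated in utero, sorted by flow cytometry and labelled as layer 2/3 excitatory neurons. The series asked how sex and loss of Cux1 or Cux2, transcription factors of upper cortical layers, bear on gene expression. At E19, WT, Cux1 KO and Cux2 KO had 4 female and 4 male libraries each. At postnatal day 4 (P4) there were 3 female and 3 male libraries of WT and of Cux2 KO and 2 male libraries of Cux1 KO, and at P7 there were 2 female and 3 male WT libraries.

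All animals carried the strain label C57BL/6JRccHsd. Cux2 KO animals were Cux2-/- in the germline at both stages. Cux1 KO animals at E19 were Cux1DC/DC in the germline. At P4 the Cux1 KO was conditional, made in Cux1f/D23 animals, and is named Cux1D23/D23. Cells of these animals that were not electroporated carried a D23 allele beside the flox allele. The KO arose in electroporated cells that received pCAG-iCre together with the Cre-dependent reporter pCALNL-GFP, so Cre was driven by the broadly active CAG promoter. The other groups received pCAG-GFP. The Cux1 KO libraries of E19 and P4 therefore differed in allele, plasmids and stage. The E19 libraries were sequenced in an earlier round than those of P4 and P7, so stage and round cannot be told apart.

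Each E19 library held 13321095 to 20715732 counts in total, each P4 library 19499125 to 60559585 and each P7 library 15312029 to 27633827. The copies together held 1741 to 4836 counts per E19 library, 11717 to 31155 per P4 library and 8762 to 14689 per P7 library. Levels are CPM, counts scaled to the library total, after TMM normalization. Each read was counted at its primary alignment alone, and how that was picked among equal matches was not stated. Since the copies are nearly identical, the sum of the 4 counts is the leading value. A value that misses the threshold does not show equal levels, least of all at P4, where edgeR called 0 genes in several comparisons. Genes passed the test at an edgeR adjusted p under 0.05 with a log2 fold change over 0.5 in size for E19 comparisons, and over 1 for others. The test of genotype by sex used the adjusted p alone.

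The labelled cell type was checked against marker genes in WT libraries. Slc17a7, the vesicular glutamate transporter of cortical excitatory neurons, was at 10.7 ± 2.88 CPM (SD, n = 8) at E19, 0.0593 ± 0.125 (n = 6) at P4 and 0.987 ± 0.707 (n = 5) at P7. Sox9, a transcription factor of astrocytes and radial glia, had 101 ± 9.87, 926 ± 114 and 954 ± 82.1 CPM at these stages. Most markers of the lists of these genes moved the same way from E19 to P4, since 10 of 13 upper-layer markers fell past the threshold and 1 rose, and 5 of 8 astrocyte and radial glia markers rose and 1 fell, beside 45.9% of all genes in either direction. The exceptions were Rorb and Fabp7. Rorb, a transcription factor of cortical layer 4, had 28.2 ± 5.15 CPM at E19 and 172 ± 39.2 at P4, and Fabp7, a lipid-binding protein gene of radial glia, had 576 ± 72.8 and 32.2 ± 25.1. The lists thus moved away from the label, and which cells the P4 and P7 libraries held was not tested. In these sorted bulk samples, fewer cells of a type and less RNA per cell cannot be told apart.

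The knocked-out genes were still counted in the KO libraries, and whole-gene counts cannot show the loss of an exon. In E19 females Cux2 was at 346 ± 54 CPM in Cux2 KO and 448 ± 57.5 in WT (n = 4 each). On the log2 scale the fold change was -0.37, with an edgeR adjusted p of 0.896. In E19 males Cux2 was at 349 ± 59.7 in Cux2 KO and 408 ± 74.1 in WT. At P4 it was at 38 ± 12 in Cux2 KO and 33.5 ± 4.82 in WT females, and at 44.5 ± 15.2 and 38.2 ± 10 in males (n = 3 each). The groups overlapped in each of these Cux2 comparisons. In E19 females Cux1 was at 308 ± 22.4 CPM in Cux1 KO and 415 ± 61.1 in WT, without overlap of the groups but short of the threshold (log2 fold change -0.43, edgeR adjusted p = 0.286). In E19 males Cux1 was at 344 ± 27.3 in Cux1 KO and 398 ± 74.6 in WT. In P4 males Cux1 was at 132 ± 67.1 in Cux1 KO (n = 2) and 119 ± 36.9 in WT (n = 3). Both of these overlapped.

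A pair of E19 female libraries stood apart from their groups at the Dynlt1 locus. WT female replicate 4 had a summed level of 115 CPM, below the other WT females at 191 to 237. Cux2 KO female replicate 2 had 213 CPM, above the other Cux2 KO females at 127 to 177. The lncRNA Gm64463 lies between Dynlt1b and Dynlt1c, as does the pseudogene Tmem181b-ps, which was singled out after its values were seen. Tmem181b-ps had 0 counts in 8 E19 libraries, namely all 4 Cux2 KO males, Cux2 KO females 1, 3 and 4, and WT female 4. It had 1 to 22 counts in the other 16, Cux2 KO female 2 included. In those 8 libraries Gm64463 was at 2.34 to 4.33 CPM, and in the other 16 at 14 to 31.3 CPM. Whether the sequence of this region differed between the animals was not tested, which bears on every Dynlt1 value of the E19 Cux2 KO comparisons. It bears too on the other comparisons that hold WT female 4. Those are Cux1 KO against WT females at E19, the WT sexes at E19, and WT P4 against E19. Gm5948, a processed pseudogene on chromosome 10 that was also picked after its values were seen, followed the genotype labels in every E19 library. It had 0 counts in all WT and Cux1 KO libraries and was at 7.16 to 12.4 CPM in all Cux2 KO libraries, with 0 in WT female 4 and 8.59 in Cux2 KO female 2.

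**Figure D1:**
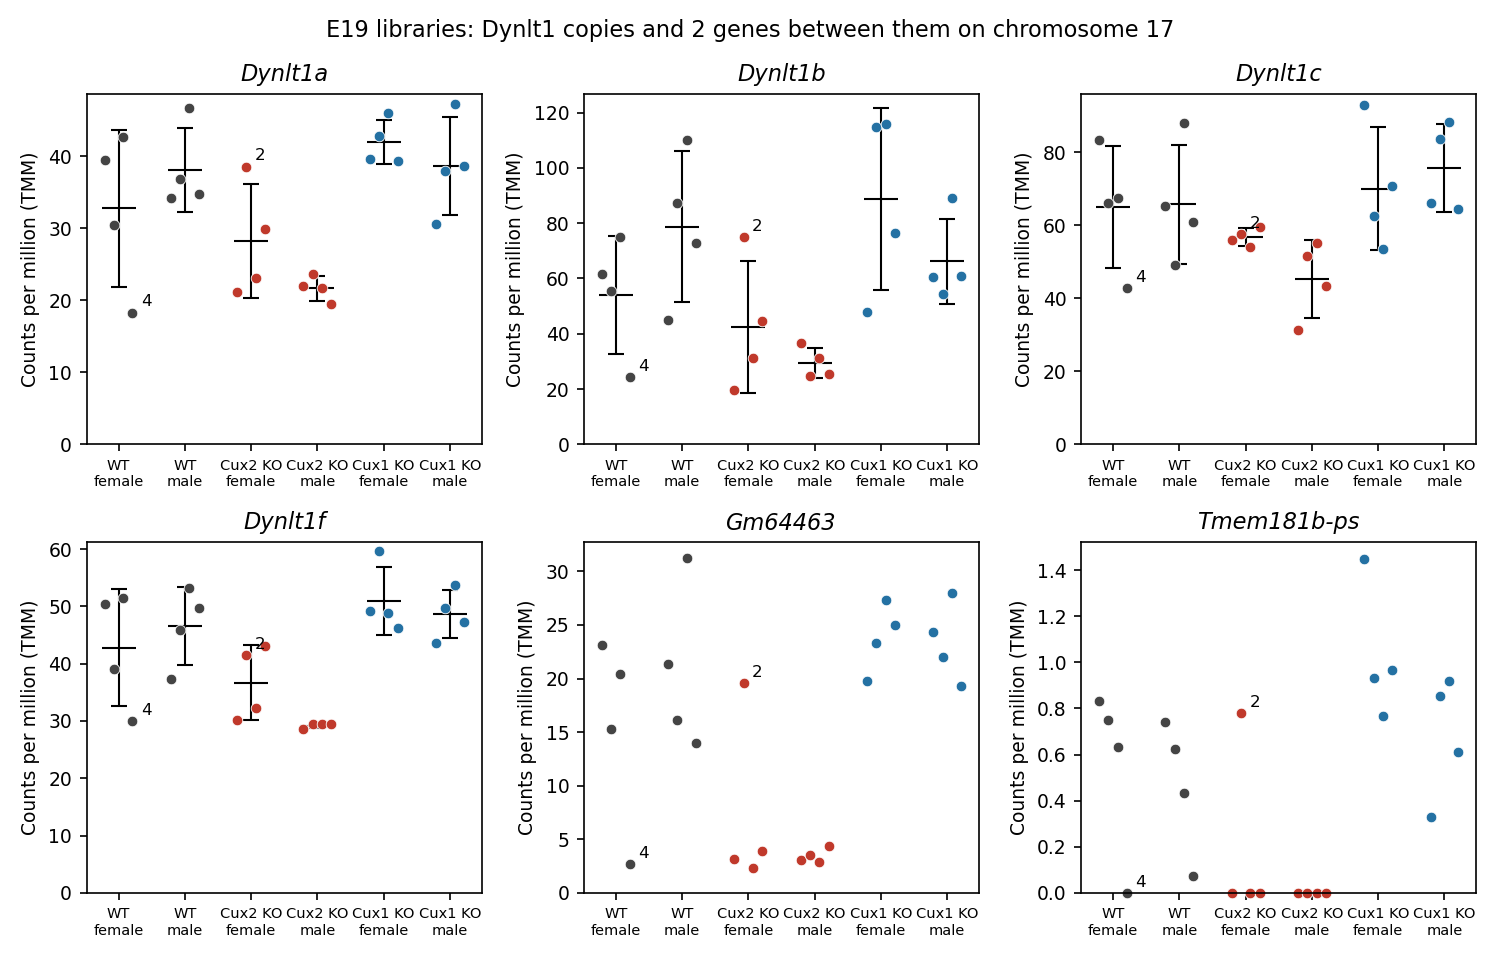
Levels (y axes, CPM after TMM scaling, from 0) of the 4 Dynlt1 copies, Gm64463 and Tmem181b-ps in the 24 E19 libraries by genotype and sex (x axes). Points are libraries, bars in the panels of the copies are the mean and SD, and numbers mark WT female replicate 4 and Cux2 KO female replicate 2. Gm64463 is at 2.7 CPM in WT female 4 and 19.6 in Cux2 KO female 2.

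Across the 13 groups the summed level of the copies was highest in Cux1 KO males at P4, at 736 ± 114 CPM (n = 2). WT females at P4 followed at 559 ± 87.2 (n = 3), WT females at P7 at 551 ± 23.1 (n = 2), WT males at P7 at 527 ± 13.2 (n = 3) and WT males at P4 at 474 ± 30.8 (n = 3). Cux2 KO females at P4 had 442 ± 82 and Cux2 KO males at P4 had 411 ± 81.4 (n = 3 each). All P4 and P7 libraries lay above all E19 libraries. At E19, with 4 libraries a group, Cux1 KO females had 252 ± 24.5, Cux1 KO males 229 ± 34.3, WT males 229 ± 49.1 and WT females 194 ± 56.9. Cux2 KO females at 164 ± 38.7 and Cux2 KO males at 126 ± 9.41 were lowest. Neighbours in this order overlapped, except that WT males at P7 lay above WT males at P4, and Cux2 KO males at P4 above Cux1 KO females at E19.

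**Figure D2:**
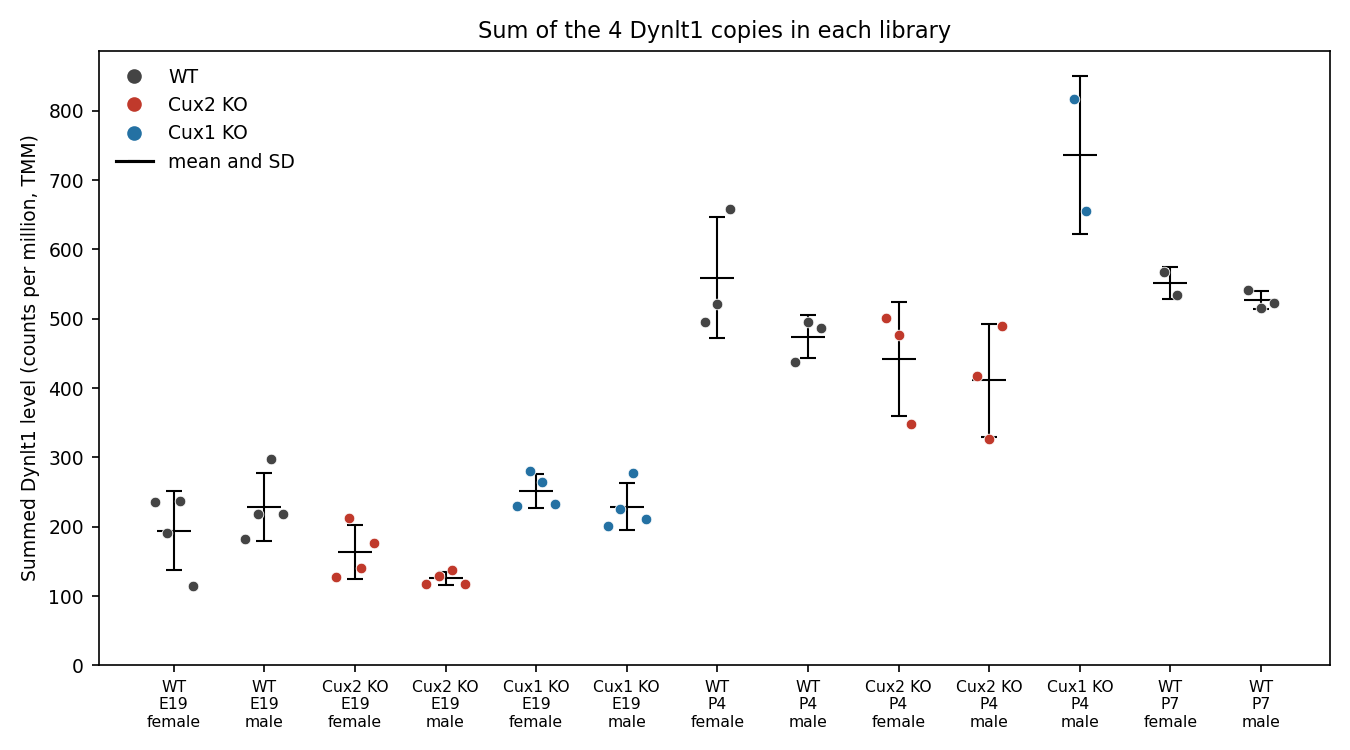
Summed level of Dynlt1a, Dynlt1b, Dynlt1c and Dynlt1f in each library (y axis, CPM after TMM scaling) by genotype, stage and sex (x axis). Points are libraries, and bars are the group mean and SD. Cux2 KO males at E19 lie between 118 and 137 CPM, and Cux1 KO males at P4 at 655 and 817 CPM.

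The males at E19 are the contrast from which the copies were chosen. In WT males the sum was at 182, 219, 298 and 218 CPM in replicates 1 to 4, and in Cux2 KO males at 118, 129, 137 and 118. All 4 KO libraries lay below all 4 WT libraries, as did 3 of 4 copies taken singly, beside 4.4% of all genes without overlap of the groups. The fitted log2 fold change was -0.89. Dynlt1b, the copy with the shortest annotated exons, was at 44.9, 87.5, 110 and 72.7 CPM in WT and at 36.5, 24.8, 31.1 and 25.6 in Cux2 KO, and its log2 fold change was -1.43. Dynlt1a was at 34.2 to 46.7 CPM in WT and 19.5 to 23.7 in KO (log2 fold change -0.83), and Dynlt1f at 37.4 to 53.3 and 28.6 to 29.5 (-0.69). Dynlt1c overlapped, at 49 to 87.9 CPM in WT and 31.2 to 55 in KO (-0.56). In this contrast 2 of 4 copies were past the threshold, beside 0.121% of all 17332 genes tested, from which nothing is read because the contrast chose the copies. In the same libraries ependymal markers had a median log2 fold change of 2.37, beside -0.01 for all genes. Of the markers tested 5 of 5 were above 0 and none was past the threshold. The list's summed level was 104 ± 109 CPM in KO, with 260 in replicate 1, and 26.8 ± 13.4 in WT (n = 4 each). The groups overlapped in it, at 16.6 to 260 CPM in KO and 14.4 to 45.7 in WT. Foxj1 led the list per kb in both groups, and Tmem212 was at 0 in WT. Microglia markers lay lower, as the copies did (median -0.48, 7 of 8 below 0), and the other 6 lists had medians from -0.23 to 0.19. None of their markers passed the threshold. The part of these markers in the lower levels of the copies was not tested.

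Female libraries at E19 were not used in the choice of the copies. In WT females the sum was at 235, 191, 237 and 115 CPM in replicates 1 to 4, and in Cux2 KO females at 127, 213, 141 and 177. The groups overlapped, since the lowest WT library lay below all KO libraries. The log2 fold change of the sum was -0.24 ± 0.21 (SE), with an edgeR adjusted p of 0.977 and an exact permutation p of 0.4, where 0.0286 is the smallest that 4 against 4 allow. No copy passed (0 of 4, beside 0.0287% of 17436 genes, or 5 genes by edgeR, while 806 had an unadjusted p under 0.05, and DESeq2 called 30 without shrinkage and 22 with a fold change prior). The copies' log2 fold changes were -0.22 for Dynlt1a, -0.35 for Dynlt1b, -0.19 for Dynlt1c and -0.22 for Dynlt1f. Leaving out single libraries gave -0.42 to -0.06 for Dynlt1a, -0.35 to -0.05 for Dynlt1c and -0.36 to -0.11 for Dynlt1f. Without WT female 4 the sum's value was -0.43, and without WT female 3 it was -0.13. Dynlt1b went from -0.35 to -0.76 without Cux2 KO female 2 and to -0.11 without Cux2 KO female 1, and none of these passed the test.

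Among the E19 females, the endothelial and mural marker list had a median log2 fold change of 1.26 in Cux2 KO, beside 0.01 for all genes, with 7 of 8 markers above 0 and none past the threshold. Its summed level was 39.2 to 121 CPM in KO and 48.8 to 56.7 in WT, with Cldn5 the most abundant per kb in KO, Pdgfrb in WT, and no marker at 0 throughout a group. The other 7 marker lists had medians from -0.13 to 0.29. Their part in the values of the copies was not tested.

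At P4, Cux2 KO and WT were compared within each sex, in libraries the choice of the copies did not use. In females the sum was at 496, 522 and 659 CPM in WT and 501, 476 and 348 in Cux2 KO. The groups overlapped by 1 KO library, and the log2 fold change was -0.33 ± 0.183 (edgeR adjusted p = 0.729, exact permutation p = 0.2, where 0.1 is the smallest possible). Without WT female 3 the sum's value was -0.18, and without Cux2 KO female 1 it was -0.42. Dynlt1c in females did not overlap, at 163 to 250 CPM in WT and 110 to 150 in KO. It was 1 of 4 copies, beside 15.7% of all genes, so the lack of overlap does not set it apart. Its log2 fold change of -0.56 missed the threshold (edgeR adjusted p = 0.658). In females no copy passed (0 of 4, beside 0% of 19538 genes by edgeR, while 1443 genes had an unadjusted p under 0.05, and DESeq2 called 179 without shrinkage and 42 with the prior). Endothelial and mural markers had a median of 1.24 beside 0.02 for all genes, with 8 of 8 above 0, at summed levels of 415 to 529 CPM in KO and 150 to 212 in WT. Rgs5 led them per kb in KO and Cldn5 in WT. Microglia markers had a median of 1.26, with 9 of 9 above 0, at 98.6 to 365 and 83.9 to 102 CPM, with C1qc the most abundant per kb in KO. Lower in KO, as the copies were, lay the interneuron markers (median -0.7, 6 of 8 below 0, at 321 to 572 CPM in KO and 606 to 1170 in WT, led by Dlx2) and the progenitor and cell cycle markers (median -0.35, 8 of 8 below 0, led by Pcna). The other 4 lists had medians from -0.18 to 0.41. No marker of the 4 lists named passed or was at 0 throughout a group, and their part in the values of the copies was not tested.

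In P4 males the sum was at 438, 495 and 487 CPM in WT and 417, 327 and 490 in Cux2 KO. Cux2 KO replicate 3 lay within the WT range and the other KO libraries below it. The fitted log2 fold change was -0.16 ± 0.178 (edgeR adjusted p = 0.999, exact permutation p = 0.3). It was -0.01 without Cux2 KO male 2 and -0.31 without Cux2 KO male 3. Dynlt1a alone of the 4 did not overlap (beside 12.6% of all genes, so this does not set it apart), at 88 to 104 CPM in WT and 65.5 to 82.9 in KO, with a log2 fold change of -0.27 (edgeR adjusted p = 0.974). In this comparison no copy passed (0 of 4, beside 0% of 19720 genes by edgeR, with 1136 at an unadjusted p under 0.05, 362 by DESeq2 without shrinkage and 75 with the prior). Ependymal markers had a median log2 fold change of 1.91 beside 0 for all genes, with 7 of 8 above 0 and none past the threshold. Their summed level was 147 to 246 CPM in KO and 31.6 to 84.4 in WT, led per kb by Rsph1, with no marker at 0 throughout a group. The other 7 marker lists had medians from -0.35 to 0.5, and the part of any of them in the level of the copies was not tested.

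With both sexes in a single fit and sex as a covariate, the sum was at 427 ± 74.9 CPM in Cux2 KO and 516 ± 74.8 in WT (n = 6 each). The log2 fold change was -0.24 ± 0.132, with an edgeR adjusted p of 0.875. Dynlt1c had the lowest fitted value of the copies at -0.35 and Dynlt1b the one nearest 0 at -0.1. Again 0 of 4 copies passed, beside 0.0503% of 21878 genes (11 by edgeR, with 1374 at an unadjusted p under 0.05, 104 by DESeq2 without shrinkage and 13 with the prior). The test of whether the genotype difference itself differed between the sexes gave 0.17 ± 0.271 for the sum (edgeR adjusted p = 0.937), with 0.02 without Cux2 KO male 3 and 0.33 without Cux2 KO male 2. None of the 4 copies passed it, beside 0% of 21878 genes by edgeR, with 1590 at an unadjusted p under 0.05 and 239 by DESeq2. With sex as a covariate, the marker lists had medians from -0.57 for interneurons, below 0 as the copies were, to 0.92 for ependymal cells. For genotype by sex they ran from -1.78 for endothelial and mural cells to 1.63 for ependymal cells. No marker passed in either, and their part in the values of the copies was not tested. Tmem181b-ps had 9, 20 and 17 counts in the Cux2 KO females at P4 and 9, 12 and 32 in the males, so no Cux2 KO library of this stage was at 0. Gm64463 was at 9.74 ± 3.32 CPM in KO and 9.22 ± 0.878 in WT females, and at 7.23 ± 1.46 and 11.6 ± 5.57 in males (n = 3 each).

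Cux1, a paralogue of Cux2, was lost in separate animals. At E19 the Cux1 KO females had summed levels of 230, 280, 265 and 233 CPM. These libraries were compared with the same WT females as the Cux2 KO, and 2 of them lay within the WT range of 115 to 237 CPM and 2 above it. On the log2 scale the fold change was 0.37 ± 0.176 (edgeR adjusted p = 0.733, exact permutation p = 0.171). Dynlt1b had the highest fitted value, 0.72 (edgeR adjusted p = 0.706), and Dynlt1c the lowest, 0.1. Without WT female 4 the value of the sum was 0.18, and with the DESeq2 prior the sum was at 0.19 and Dynlt1b at 0.18. Of the copies none passed (0 of 4, beside 0.0576% of 17376 genes, or 10 by edgeR, with 1194 at an unadjusted p under 0.05, 47 by DESeq2 without shrinkage and 29 with the prior). Progenitor and cell cycle markers had fitted values above 0, as the copies had, in 8 of 8 (median 0.18), and none passed the threshold. Their summed level was 1160 to 1200 CPM in KO and 759 to 1150 in WT, led by Pcna. Of 13 upper-layer markers 12 were below 0 (median -0.05), and the other 6 lists had medians from -0.19 to 0.27. The part of these markers in the level of the copies was not tested.

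In E19 males the Cux1 KO libraries had 201, 226, 278 and 211 CPM, beside the 182 to 298 CPM of the WT males that also served in the choice of the copies. All KO libraries lay within the WT range. The fitted log2 fold change was -0.02 ± 0.138 (edgeR adjusted p = 0.979, exact permutation p = 1). Values of single copies ran from -0.27 for Dynlt1b to 0.18 for Dynlt1c. Here no copy passed (0 of 4, beside 0.0979% of 17362 genes, or 17 by edgeR, with 1798 at an unadjusted p under 0.05, 113 by DESeq2 without shrinkage and 73 with the prior). With the sum near equal, 7 of 8 microglia markers were below 0 (median -0.8), at 46.3 to 66.6 CPM in KO and 73.5 to 91.3 in WT, led by C1qa. Of 7 oligodendrocyte markers 6 were below 0 (median -0.48), at 381 to 579 and 594 to 730 CPM, led by Olig1. The other 6 lists had medians from -0.22 to 0.09, and none of their markers passed.

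The conditional Cux1 KO males at P4 had the highest and the third highest Dynlt1 sum of all 43 libraries. Their sums were 817 and 655 CPM, beside 438, 495 and 487 in the WT males that also served the Cux2 comparison. Both KO libraries lay above the 3 WT libraries. The log2 fold change was 0.63 ± 0.169 and missed the threshold (edgeR adjusted p = 0.131, exact permutation p = 0.1, as low as 2 against 3 can give). By DESeq2 without shrinkage the adjusted p of the sum was 0.011 at a log2 fold change of 0.62, within a range of 0.011 to 0.424 over the settings that kept all libraries, and the fold change threshold was not reached. Dynlt1a was at 151 and 155 CPM in KO and 88 to 104 in WT, Dynlt1b at 211 and 253 and 134 to 155, Dynlt1c at 169 and 264 and 128 to 148, and Dynlt1f at 124 and 144 and 85.2 to 104. None of the 4 copies overlapped between the groups, beside 41.4% of all genes, of which 18.4% were higher and 23% lower in KO. With so large a share this does not set the copies apart. Their log2 fold changes were 0.7, 0.7, 0.62 and 0.44. No copy passed (0 of 4, beside 0% of 19601 genes by edgeR). By edgeR 4021 genes had an unadjusted p under 0.05, while DESeq2 called 3242 without shrinkage and 2273 with the prior. Without Cux1 KO replicate 2 the value of Dynlt1c was 0.93, and without replicate 1 it was 0.22. Without replicate 2, edgeR called 639 genes in place of 0.

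No marker passed, but edgeR called 0 of all 19601 genes here, so nothing is read from that. The 2 Cux1 KO libraries at P4 also lay outside the range of the WT males for several marker lists. They held 17049 and 19115 detected genes, beside 20844 to 22546 in WT. All 8 ependymal markers were below 0 on the log2 fold change scale, with a summed level of 0.051 and 0.123 CPM in KO and 31.6 to 84.4 in WT. Foxj1, Dnah6, Dnah11 and Cfap43 were at 0 in both KO libraries, and Rsph1 was the most abundant per kb in WT. All 8 endothelial and mural markers were below 0 too, with summed levels of 0.204 and 89.5 CPM in KO and 341 to 556 in WT. Tek and Kcnj8 were at 0 in KO, and Cldn5 was the most abundant in both groups. Of 8 interneuron markers 6 were below 0, at summed levels of 83.3 and 173 CPM in KO and 362 to 565 in WT. Slc32a1 was at 0 in KO and Lhx6 in WT, while Sst led in KO and Dlx2 in WT. Of 8 progenitor and cell cycle markers 8 were below 0, at 395 to 945 and 1080 to 1330 CPM, with Eomes and Neurog2 at 0 in KO and Pcna leading in both groups.

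Of 13 upper-layer markers 10 were above 0, with a median log2 fold change of 1.49 beside -0.18 for all genes. Their summed level was 1840 and 2490 CPM in Cux1 KO and 1100 to 1420 in WT, with Neurod6 the most abundant per kb in KO and Pou3f2 in WT. Of 8 microglia markers tested 7 were below 0 (median -1.31), at summed levels of 22.8 and 23.8 CPM in KO and 68.1 or more in WT, with C1qa leading in KO and C1qc in WT. All 7 oligodendrocyte markers were below 0 (median -0.59), at 1180 to 1260 CPM in KO and 2140 to 3030 in WT, with Olig1 leading in both. Of 8 astrocyte and radial glia markers 5 were above 0 (median 0.21), at 4830 to 7480 CPM in KO and 3780 to 5310 in WT, with Hes5 leading in KO and Sox9 in WT. None of the 8 marker lists had a gene past the threshold, beside 0 of all 19601 genes by edgeR, and the last 4 lists had no marker at 0 throughout a group. The part of these cell type markers in the level of the Dynlt1 copies was not tested.

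WT females and males were compared at each stage. E19 females had a sum of 194 ± 56.9 CPM and E19 males 229 ± 49.1 (n = 4 each), with a log2 fold change of -0.24 ± 0.199 (edgeR adjusted p = 0.992, exact permutation p = 0.457). Without WT female 4 it was -0.07. These males also served in the choice of the copies. In this comparison no copy passed (0 of 4, beside 0.0461% of 17344 genes, or 8 by edgeR, with 637 at an unadjusted p under 0.05, 13 by DESeq2 without shrinkage and 9 with the prior). Lower in these females, as the copies were, lay microglia markers (median -0.4, 8 of 9 below 0, at 58.4 to 71.1 CPM in females and 73.5 to 91.3 in males), oligodendrocyte markers (-0.36, at 488 to 585 and 594 to 730) and endothelial and mural markers (-0.47). The other 5 lists had medians from -0.13 to 0.14. No marker of these lists passed at E19, and the part of these markers was not tested. At P4 the 3 WT females, at 496, 522 and 659 CPM, lay above the 3 WT males, at 438, 495 and 487. On the log2 scale the fold change was 0.29 ± 0.152 (edgeR adjusted p = 0.725, exact permutation p = 0.1, the smallest possible), and without WT female 3 it was 0.13. Dynlt1c was 1 of 4 copies that did not overlap (beside 14.9% of all genes), at 163 to 250 CPM in females and 128 to 148 in males, at a log2 fold change of 0.53 (edgeR adjusted p = 0.675). At this stage 0 of 4 copies passed, beside 0% of 19213 genes by edgeR (1398 at an unadjusted p under 0.05, 237 by DESeq2 without shrinkage and 83 with the prior). No cell type marker passed the threshold between these sexes. Endothelial and mural markers had a median of -1.22, with 8 of 8 below 0, led by Cldn5. Their summed level was 150 to 212 CPM in females and 341 to 556 in males. Oligodendrocyte markers had a median of -0.71. Medians lay above 0, as the copies did, for ependymal (1.12), interneuron (0.74) and progenitor and cell cycle markers (0.43). Summed ependymal levels overlapped, at 32.4 to 174 CPM in females and 31.6 to 84.4 in males. The other 3 lists had medians from 0.06 to 0.13, and the part of these markers in the level of the copies was not tested.

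At P7 the sum was at 567 and 534 CPM in WT females and 541, 515 and 523 in WT males. The groups overlapped, and the log2 fold change was 0.09 ± 0.108 (edgeR adjusted p = 1, exact permutation p = 0.3). Its value was 0.04 without WT female 1 and 0.16 without WT female 2. Of the copies none passed (0 of 4, beside 0.0247% of 20271 genes, or 5 by edgeR, with 883 at an unadjusted p under 0.05, 75 by DESeq2 without shrinkage and 12 with the prior). Microglia markers had a median of 1.06 and endothelial and mural markers one of -1.14, while the other 6 lists had -0.25 to 0.21.

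The copies rose together between E19 and P4 in WT libraries. The sum had a lowest, median and highest value of 115, 219 and 298 CPM at E19 (n = 8) and 438, 496 and 659 at P4 (n = 6). Every P4 library lay above every E19 library, also for each of the 4 copies, beside 45% of all genes without overlap in either direction. The sum rose by 1.24 ± 0.167 on the log2 scale (edgeR adjusted p = 1.08e-05), higher in 6 of 6 P4 libraries. Dynlt1a rose by 1.39 (edgeR adjusted p = 2.95e-06), Dynlt1b by 1.15 (0.00059), Dynlt1c by 1.3 (9.79e-06) and Dynlt1f by 1.16 (2.62e-06). All 4 of 4 copies passed the threshold, beside 45.9% of 20091 genes, of which 4531 were higher and 4683 lower at P4. With so large a share of genes past the threshold, passing it does not set the copies apart from other genes. The comparison shares its E19 males with the choice of the copies, and its stages differed in sequencing round.

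From P4 to P7, within a single sequencing round, the sum was at 516 ± 74.8 CPM (n = 6) and 536 ± 19.9 (n = 5). The fitted log2 fold change was 0.09 ± 0.0955 (edgeR adjusted p = 0.653), and the P7 libraries lay within the P4 range. This value ran from 0.06 to 0.16 without single libraries and from 0 to 0.12 under the other settings. Dynlt1b had the highest value of the copies, 0.25 (edgeR adjusted p = 0.21), and Dynlt1f the lowest, -0.09. Here no copy passed (0 of 4, beside 2.05% of 22385 genes, or 459 by edgeR, with 4932 at an unadjusted p under 0.05 and 1187 by DESeq2). While the sum stayed near its P4 level, microglia markers had a median of 3.19, with 8 of 9 past the threshold, at summed levels of 302 to 1550 CPM at P7, above all WT P4 libraries and led by C1qc. Astrocyte and radial glia markers had a median of 0.87 (8 of 8 above 0, led by Hes5 at P7 and Sox9 at P4). Of them 2 passed the threshold. Oligodendrocyte markers had 0.64 (7 of 7 above 0, led by Olig1), with 2 past the threshold. Interneuron markers had a median of -1.27 (6 of 8 below 0, led by Dlx2), with none past the threshold. Progenitor and cell cycle markers had -0.9 (8 of 8 below 0, led by Pcna), with 1 past the threshold. Upper-layer markers had -0.52 (11 of 13 below 0, led by Pou3f3 at P7), with 2 past the threshold. Ependymal markers had a median of 0.87 and endothelial and mural markers 0.4, with none past the threshold. No part of the marker lists in the level of the copies was tested.

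Other parts of the dynein machinery moved in both directions from E19 to P4. Of 10 other subunits of dynein 1, 2 rose and 4 fell, with a median log2 fold change of -0.4 beside 0.04 for all genes. Counts past the threshold in these lists stand beside the 45.9% of all genes. Dync1h1, the motor's heavy chain, went from 782 ± 98.3 to 106 ± 12.7 CPM and fell by 2.94 on the log2 scale (edgeR adjusted p = 4.79e-11). Dync1i1, a neuronal intermediate chain, fell by 1.4, and the light intermediate chain Dync1li2 by 1.01. Dynlt3, the other Tctex-type light chain of dynein 1, rose by 1.91, from 21.2 ± 4.26 to 82.2 ± 12.4 CPM (edgeR adjusted p = 3.74e-09). Of 12 dynactin subunits 1 rose and 2 fell (median 0.02), and Dctn1, the subunit that binds microtubules, fell by 3.78. Of 14 regulators and adaptors 2 rose, among them Nde1 by 1.4, and 6 fell (median -0.85). Of 4 other Tctex-type genes tested Dynlt2b, Dynlt4 and Dynlt5 rose, and none of 4 dynein 2 subunits passed (median 0.48). Among the subunits of dynein 1 other than Dynlt1, Dynlrb1 was the most abundant per kb in WT at each stage. The Dynlt1 copies were not part of that ranking.

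From P4 to P7 Dynll2, a light chain of another family, alone of these 5 lists rose, by 1.05 (edgeR adjusted p = 0.00404). At 1 of 46 genes, beside 2.05% of all genes, this does not set the lists apart. In the 6 KO against WT comparisons of a single sex and stage that did not choose the copies, 0 of these 46 genes passed by edgeR, beside 0% of all genes in the 3 at P4 and 0.0287 to 0.0979% in the 3 at E19, so nothing is read from it. From 2 to 11 of them had an unadjusted p under 0.05, beside 4.62 to 20.5% of all genes. DESeq2 without shrinkage called 7 of 46 in Cux1 KO males at P4 (beside 15.2% of all genes by that tool), 2 in Cux2 KO males at P4 (1.6%), 1 in Cux1 KO males at E19 (0.688%) and 0 in the other 3 (0.163 to 0.828%), counts near that share or too small to read. Their medians in Cux2 KO females at E19 were 0.03 for dynein 1 subunits, -0.03 for dynactin and -0.02 for regulators, beside 0.01 for all genes. In the conditional Cux1 KO males at P4 they were 0.28, 0.29 and -0.39, beside -0.18. There 3 of 4 dynein 2 subunits were below 0 (median -0.95), at summed levels of 96.4 ± 15.9 CPM in KO (n = 2) and 148 ± 27.7 in WT (n = 3). Of the other Tctex-type genes 3 of 4 tested were below 0, at summed levels of 19.9 to 31 CPM in KO and 26.5 to 32 in WT. Dynlt2b led that list per kb, and Dynlt2a1, Dynlt2a3, Dynlt4 and Dynlt5 were at 0 in KO. In Cux2 KO females at E19 these 2 lists had medians of 0.01 and, from a single gene tested, 0.32. In Cux2 KO males at P4 the other Tctex-type genes lay opposite to the Dynlt1 sum, with 6 of 6 above 0 (median 0.96). Their summed level was 44.3 to 52.5 CPM in KO and 26.5 to 32 in WT. Ependymal markers lay above 0 there too (median 1.91, 147 to 246 CPM in KO and 31.6 to 84.4 in WT). Their part in this was not tested. In the females of that stage 5 of 5 other Tctex-type genes tested were below 0 (median -0.32).

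Cell type markers also moved from E19 to P4, in counts to be read beside the 45.9% of all genes past the threshold, a share that microglia markers did not reach and ependymal, interneuron and progenitor markers passed by little. Of 13 upper-layer markers 10 fell and Rorb alone rose (median log2 fold change -3.63, beside 0.04 for all genes), with summed levels of 4820 to 6890 CPM at E19 and 1080 to 1420 at P4. Neurod6 led the list per kb at E19 and Pou3f2 at P4. Of 8 astrocyte and radial glia markers 5 rose and Fabp7 fell (median 2.41), at 1570 to 2330 CPM and 3780 to 6480 CPM, with Fabp7 leading at E19 and Sox9 at P4. Of 8 endothelial and mural markers 7 rose (median 2.65), at 24.5 to 81.2 CPM and 150 to 556 CPM, with Cldn5 leading. Of 7 oligodendrocyte markers 4 rose (median 1.46), at 488 to 730 and 626 to 3030 CPM, with Olig1 leading. Of 8 ependymal markers 4 rose, at 14.4 to 45.7 and 31.6 to 174 CPM, with Foxj1 leading at E19 and Rsph1 at P4, and Tmem212 was at 0 in all WT E19 libraries. Of 9 microglia markers 2 rose and 1 fell (median 0.74), of 8 interneuron markers 2 rose and 2 fell (median 0.4), and of 8 progenitor and cell cycle markers 2 rose and 2 fell (median 0.23). The part of these markers in the rise of the Dynlt1 copies was not tested.

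The copies kept unequal shares of their summed counts. At E19 the lowest, median and highest share over 24 libraries was 15.2, 16.8 and 18.8% for Dynlt1a and 17.9, 21.6 and 26% for Dynlt1f. Dynlt1b ranged more widely, at 15.4, 28.9 and 43.9%, and so did Dynlt1c, at 20.2, 33.3 and 44.2%. At P4 the median shares over 14 libraries were 18.3% for Dynlt1a, 31.2% for Dynlt1b, 29.9% for Dynlt1c and 19.6% for Dynlt1f. Per kb of annotated exons Dynlt1b was highest in WT at E19 with 71.4 ± 28.4 CPM per kb. Dynlt1c had 13.9 ± 3.26, Dynlt1f 12.3 ± 2.28 and Dynlt1a 7.7 ± 1.87 (n = 8 each). The annotated exons summed to 930 bases for Dynlt1b and 3627 to 4702 for the others, and Dynlt1b was also highest at P4 with 160 ± 14.7 CPM per kb. These values depend on the length taken, and a second length was chosen after seeing the data. Per kb of the transcripts whose coding sequences are compared below, Dynlt1b had 81.9 ± 32.5 CPM in WT at E19, Dynlt1f 57.9 ± 10.7, Dynlt1c 25.3 ± 5.91 and Dynlt1a 10.6 ± 2.58. The split of shared reads among copies bears on each.

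Across the 24 E19 libraries the log2 level of Dynlt1a had a Pearson r of 0.94 with Dynlt1f and 0.92 with Dynlt1b, while Dynlt1b and Dynlt1c had 0.48. Across the 14 P4 libraries the pairs had r from 0.78 to 0.92. These libraries fall into groups of genotype and sex and their copies share sequence, so the values are descriptions. The 24 E19 libraries hold the 8 males whose contrast chose the copies, here and in the correlations of neighbours and of like genes below.

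The 4 copies lie within 566687 bases of chromosome 17 in the GRCm39 build, on both strands. Dynlt1a is at chr17:6356613-6367792 on the minus strand and Dynlt1b at chr17:6697471-6703695 on the plus strand. Dynlt1c is at chr17:6869051-6879446 on the plus strand and Dynlt1f at chr17:6914001-6923299 on the minus strand. Paralogues of Tmem181, a transmembrane protein gene, are interspersed with them, namely Tmem181a at Dynlt1a, Tmem181b-ps after Dynlt1b and Tmem181c-ps between Dynlt1c and Dynlt1f. Tmem181a, at chr17:6307113-6358591 on the plus strand, overlaps Dynlt1a on the opposite strand.

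**Figure D3:**
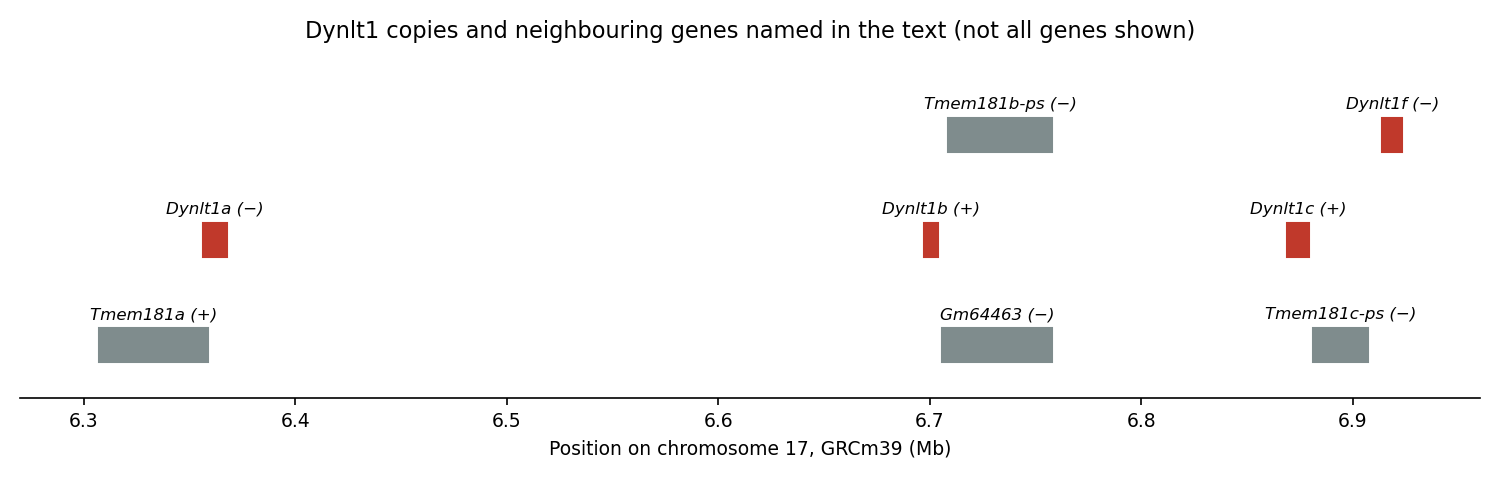
Map of the Dynlt1 copies (red) and the neighbouring genes named in the text (grey) on chromosome 17 of GRCm39 (x axis, Mb), with strands. Gm64463 and Tmem181b-ps lie between Dynlt1b and Dynlt1c and overlap each other on the minus strand. Vertical position only separates labels.

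The annotation placed 79 genes within 500 kb of the outermost copies, of which 44 were in the count table and 23 beside the copies had enough counts at E19. In the contrast of E19 males that chose the copies, Gm64463 (chr17:6705923-6757893, minus strand) alone among the 22 tested was past the threshold, at a log2 fold change of -2.60. Tmem181b-ps had too few counts there to be tested. Tmem181c-ps was at -1.38 and Tmem181a at -0.59. In each of the other 6 KO against WT comparisons of a single sex and stage 0 of 23 passed by edgeR, beside a share of all genes of 0% at P4 and under 0.1% at E19, so the count says nothing about the neighbours. From 0 to 4 had an unadjusted p under 0.05, beside 4.62 to 20.5% of all genes. DESeq2 without shrinkage called 3 of 23 in Cux1 KO males at P4, beside 15.2% of all genes, and 0 in the others. Across the 24 E19 libraries the level of the sum had r of 0.92 with Gm64463, 0.80 with Tmem181b-ps, 0.75 with Tmem181a and 0.75 with Tmem181c-ps. The 19 other neighbours had r from -0.43 for Gm2808 to 0.54 for Mir692-1, with a median of 0.01. In part these values restate the choice of the copies, because the choosing males are among the libraries.

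The coding sequences show how alike the copies are. In the transcript of each copy with a shared coding sequence of 339 bases without the stop codon, in 5 exons, Dynlt1a, Dynlt1c and Dynlt1f were identical in all bases. Dynlt1b differed from each at 1 position, so that 99.7% of positions were identical (C21A from Dynlt1a to Dynlt1b, A21C from Dynlt1b to Dynlt1c or Dynlt1f, where positions count from 1 at the first coding base). The first 60 coding bases are given 5′ to 3′ from GRCm39, joined across the intron that splits them, because 60 bases is the read length and they hold the only coding base that differs, in capitals. They lie at chr17:6365201-6367675 (minus), chr17:6697611-6699311 (plus), chr17:6869209-6870918 (plus) and chr17:6920719-6923199 (minus).
Dynlt1a: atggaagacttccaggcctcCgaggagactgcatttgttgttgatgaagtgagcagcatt
Dynlt1b: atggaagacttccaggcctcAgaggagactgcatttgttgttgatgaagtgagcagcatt
Dynlt1c: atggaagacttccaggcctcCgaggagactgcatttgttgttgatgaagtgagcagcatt
Dynlt1f: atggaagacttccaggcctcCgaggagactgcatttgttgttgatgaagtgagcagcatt

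Most stretches of read length are shared. Of all runs of 60 bases in these transcripts, 56.5% of those in Dynlt1a, 78.6% in Dynlt1b, 92.5% in Dynlt1c and 91.6% in Dynlt1f also occurred in another copy. Runs found in no other gene made up 35.1, 21.4, 7.47 and 8.43% in the same order. The processed pseudogene Dynlt1-ps1, at chr6:135326406-135326747, held 283 of the runs of Dynlt1a, Dynlt1c and Dynlt1f each and 262 of those of Dynlt1b. Dynlt1a also shared 264 runs with Tmem181a and 98 with Gm64463. Runs were matched on either strand, and Tmem181a overlaps Dynlt1a on the opposite strand. The runs shared with Tmem181a can therefore be the same bases read on both strands. Strand handling of the counts was not stated, which bears on the values of Tmem181a too.

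Dynlt1-ps1 was counted as a gene of its own. It had 14.5 ± 1.86 CPM in Cux2 KO and 27.9 ± 5.3 in WT males at E19 (n = 4 each), at a log2 fold change of -0.96 in the contrast that chose the copies. In Cux1 KO males at P4 it was at 83.5 ± 26 CPM (n = 2), beside 47.4 ± 5.95 in WT (n = 3), at a log2 fold change of 0.81 that missed the threshold (edgeR adjusted p = 0.209). From E19 to P4 in WT it rose by 1.11 on the log2 scale (edgeR adjusted p = 0.00022).

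Promoter sequences of RefSeq (build GRCm38.p6) matched 2 of the 4 copies, Dynlt1c and Dynlt1f, and are shown because the copies rose together from E19 to P4. Each run spans 250 bases before to 50 after the gene's start, 5′ to 3′ on the gene's strand, at chr17:6601529-6601828 (plus) for Dynlt1c and chr17:6655890-6656189 (minus) for Dynlt1f. Capitals mark matches to CCAAT on either strand (ATTGG on the other), the motif for which Cux proteins were once named CCAAT displacement proteins. Each held 1 such match, as 37.4% of 32851 promoters in the table held at least 1. The 2 promoters are nearly alike over the stretch that holds the match, so these are not separate observations. ATCGAT was searched on both strands as a sequence known from Cux factor binding. Neither promoter held it, and 0.925% of all promoters did. A match is a description of letters only.
Dynlt1c: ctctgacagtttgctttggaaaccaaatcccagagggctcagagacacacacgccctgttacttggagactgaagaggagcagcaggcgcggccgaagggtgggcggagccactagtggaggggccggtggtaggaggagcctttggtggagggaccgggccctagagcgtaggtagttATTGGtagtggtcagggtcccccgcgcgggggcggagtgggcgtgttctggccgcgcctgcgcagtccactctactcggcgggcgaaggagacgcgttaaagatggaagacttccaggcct
Dynlt1f: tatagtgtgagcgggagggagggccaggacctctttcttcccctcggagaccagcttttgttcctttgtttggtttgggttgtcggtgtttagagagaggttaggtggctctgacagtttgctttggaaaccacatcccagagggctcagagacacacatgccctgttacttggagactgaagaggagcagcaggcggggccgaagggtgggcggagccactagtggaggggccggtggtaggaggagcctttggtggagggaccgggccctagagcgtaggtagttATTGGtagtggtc

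The genes whose log2 levels were most like the sum were found over all libraries of a stage. Over the 24 E19 libraries, among 18859 genes with a median r of 0.007, Dynlt1-ps1 was closest (r = 0.964, Spearman's rho = 0.955), then Gm64463 (0.921, 0.861). Hmgb1-ps2 (0.817, 0.797), Hmgb1, which encodes a chromatin protein (0.816, 0.776), and Hmgb1-ps1 (0.816, 0.875) followed. Over the 14 P4 libraries, among 23654 genes with a median r of -0.126, Gm13835 (0.95, 0.793) and Dynlt1-ps1 (0.903, 0.851) were closest. Rps24, a ribosomal protein gene (0.892, 0.83), Psma3, a proteasome subunit gene (0.891, 0.653), and Txnl4a, a splicing factor gene (0.887, 0.789), came next. The 2 Cux1 KO libraries had the highest sum and the third highest among the 14 P4 libraries, and all libraries share their groups.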

How the data were processed

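The authors deposited raw counts per gene, made with HISAT2 on GRCm39 and featureCounts; the labels give no versions for these tools. Duplicate reads were removed and only primary alignments counted, while strand handling and the choice among equal matches were not stated, so the split of counts among near-identical copies is uncertain. Comparisons used edgeR 4.0.16 in R 4.3.3 (TMM, filterByExpr, two-sided quasi-likelihood test on the libraries compared, Benjamini-Hochberg over all genes kept). For the sum, the 4 genes were replaced by their summed counts. All 4 copies were kept by the filter in every comparison. The SE of a log2 fold change was its size divided by the square root of the quasi-likelihood F statistic. Two-sided exact permutation tests used the CPM of the sum. Alternatives were DESeq2 1.42.0, its size factors, library totals, no filter, all groups in a single fit, a replicate block (limma 3.58.1), Dynlt1-ps1 added, and leaving out each library. Other genes named were Cux1, Cux2, genes named Dynlt1, those within 500 kb of the copies or in dynein lists that passed in a KO against WT comparison, the most abundant of each list, and the 5 most like the sum per stage; others are said to be picked after their values were seen, or stand as examples for their lists. The copies and lists were chosen with earlier results of these data known. Transcripts compared were the principal CCDS ones, chosen because they share a coding length. The calling procedure was tested on simulated data, where edgeR recovered fewer planted changes in the P4 KO designs than at E19 and DESeq2 made more false calls; its dispersion was changed after a first run that recovered few or none at P4.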

Additional observations from a re-analysis of the deposited data

Results flagged for a closer look

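Dynlt1f in Cux2 KO male replicate 1 at E19 was at 28.6 CPM, below the other 3 libraries of its group at 29.4 to 29.5. Its gap to the nearest library, divided by the range of the group, was above Dixon's critical value for 4 values. It was 1 of 30 sets of values of Dynlt1 copies and their sum in groups of 4 libraries that were tested, fewer than the about 1 in 20 that chance marks. The library belongs to the contrast that chose the copies, and nothing is read from it.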

How the results depend on the processing

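The sums of the 4 copies kept their direction in all 101 alternatives that kept every library, and in 106 of 109 that left out 1 library, in the comparisons that did not choose the copies. In the males that chose them the value alone was followed, at -0.97 to -0.72 without single libraries and -0.9 to -0.72 under the other settings. No sum changed its side of the threshold, which says nothing of stability where edgeR called 0 of all genes, as in several P4 comparisons; the adjusted p of the sum in Cux1 KO males at P4 ran from 0.011 to 0.424 over the settings that kept every library. The exceptions were in Cux1 KO males at E19, where the log2 fold change of -0.02 ranged from -0.14 to 0.13 without single libraries. Single copies that changed sign when 1 library was left out were Dynlt1b in Cux2 KO females at P4 (-0.26 to 0.06), Dynlt1b (-0.19 to 0.11) and Dynlt1c (-0.4 to 0.03) in Cux2 KO males at P4, Dynlt1c in Cux1 KO females at E19 (-0.06 to 0.24), and Dynlt1a (-0.12 to 0.11) and Dynlt1f (-0.05 to 0.11) in Cux1 KO males at E19. Dynlt1a in Cux1 KO males at E19, whose value rounds to 0, changed sign to another value that rounds to 0 with all groups in a single fit and with the replicate block. The cause was not tested. The DESeq2 prior drew values toward 0, among them Dynlt1b in Cux2 KO males at E19 from -1.43 to -0.94, in Cux2 KO females from -0.35 to -0.08, where the sum went from -0.24 to -0.16, and in Cux1 KO females at E19 from 0.72 to 0.18, where the sum went from 0.37 to 0.19. The sum between the WT sexes at E19 went from -0.24 to -0.1. Without single libraries the sum was at -0.42 to -0.18 in Cux2 KO females, -0.31 to -0.01 in Cux2 KO males and 0.42 to 0.8 in Cux1 KO males at P4, and at 0.02 to 0.33 for genotype by sex. The rise of the sum from E19 to P4 was 1.15 to 1.32 without single libraries and 1.15 to 1.43 under the other settings.

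Counts of genes past the threshold changed by over 1.5 times under settings other than DESeq2 as follows. Without a filter they were 46 in place of 5 for Cux2 KO females, 63 in place of 21 for Cux2 KO males, 63 in place of 10 for Cux1 KO females and 91 in place of 17 for Cux1 KO males at E19, and 5 in place of 0 between the sexes at P4, where library totals gave 2. With all groups in a single fit they were 8 for Cux2 KO females and 5 for Cux1 KO males at E19, and at P4 they were 1, 4 and 6 in place of 0, 0 and 11 for Cux2 KO females, males and both sexes, 2597 in place of 0 for Cux1 KO males, and 7 in place of 0 between the sexes. They were 1247 in place of 459 between P7 and P4. With the replicate block they were 10 in place of 21 for Cux2 KO males and 46 in place of 17 for Cux1 KO males at E19, 4 in place of 11 for Cux2 KO in both sexes at P4, and 0 in place of 5 between the sexes at P7. The labels tie replicate numbers to no litter, batch or day, and in no comparison with 3 or more such pairs were all libraries of equal number alike; the 2 pairs at P7 (r of 0.345 and 0.437) are too few to tell. For Cux2 KO males at E19 DESeq2 called 93 without shrinkage and 66 with the prior. Leaving out 1 library gave 3 to 14 for Cux2 KO females and 9 to 19 for Cux2 KO males, 2 to 30 for Cux1 KO females and 0 to 16 for Cux1 KO males at E19, 0 to 1 for Cux2 KO males, 4 to 7 for both sexes and 0 to 639 for Cux1 KO males at P4, 0 to 4 for genotype by sex, 0 to 3 between the sexes at P7, and 223 to 502 between P7 and P4; the cause was not tested. Where this left a group with 1 library, that library was assumed to vary like the other group. Few libraries a group and reads shared among copies limit what can be said of any single copy.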
